A study of Mus musculus with 2 samples.

Results

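The heat shock genes described here are 10 genes of cytosolic and mitochondrial protein folding: Hspa1a, Hspa1b, Hspa8, Dnajb1, Dnaja1, Hsph1, Hspb1, Hsp90aa1, Hspd1 and Hspe1. They were chosen by symbol among 55450 gene identifiers, and all 10 were measured. Their levels were compared across cell classes and between libraries, and their co-variation was described within tumor-like and macrophage-like cells. The data are 2 libraries of droplet single-cell RNA sequencing from the 3′ ends of transcripts, in which every transcript is counted by its own molecular barcode, the unique molecular identifier (UMI). The tumors were grown from EMT6, a mouse cell line of triple-negative breast cancer (TNBC), under the skin of immunocompetent BALB/c mice, and each library was made from tumors of 3 mice pooled. Mice of the Olaparib + LLY-283 group received LLY-283, a PRMT5 inhibitor, at 50 mg/kg (3 days on, then 4 off), and Olaparib, a PARP inhibitor, at 50 mg/kg daily. Mice of the Combo group received the same agents and an anti-PD-1 antibody, 200 µg every 3 days. All cells had therefore been exposed to both inhibitors, and no untreated library was analysed here. Both libraries also shared an enzymatic dissociation of 20 min at 37 °C and a depletion of dead cells before capture.

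Heat shock proteins are chaperones, which bind unfolded proteins and help them to fold. Under heat or other proteotoxic stress, heat shock factor 1 binds heat shock elements, repeats of the short unit NGAAN in alternating orientation, and strongly induces genes such as Hspa1a, Hspa1b, Dnajb1, Hspb1 and Hsph1. Hspa8 is abundant in unstressed cells too. Tumor cells are known for high chaperone levels, and tissue dissociation is known to induce the same genes.

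Hspa1a and Hspa1b encode the stress-induced HSP70 and are near-identical neighbors. On mm10 (GENCODE M21), Hspa1b (ENSMUSG00000090877) lies on chromosome 17 from 34956436 to 34959238 and Hspa1a (ENSMUSG00000091971) from 34969190 to 34972156, both on the minus strand, each with 1 exon, and 9951 bases apart. The 250 bases before their start sites (RefSeq, GRCm38.p6) are shown, chr17:34972157-34972406 for Hspa1a and chr17:34959239-34959488 for Hspa1b, both on the minus strand. They were chosen because Hspa1b had the higher level in tumor-like cells and Hspa1a in macrophage-like cells, with almost the same promoter sequence. Capitals mark an inverted pair of units, GAANNTTC, at positions -104 to -97 from the start site in both.
Hspa1a: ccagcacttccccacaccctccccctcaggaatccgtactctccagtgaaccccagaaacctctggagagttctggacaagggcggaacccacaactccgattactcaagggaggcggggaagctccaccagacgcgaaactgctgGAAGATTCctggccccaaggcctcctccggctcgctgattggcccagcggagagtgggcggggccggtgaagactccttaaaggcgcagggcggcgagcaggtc
Hspa1b: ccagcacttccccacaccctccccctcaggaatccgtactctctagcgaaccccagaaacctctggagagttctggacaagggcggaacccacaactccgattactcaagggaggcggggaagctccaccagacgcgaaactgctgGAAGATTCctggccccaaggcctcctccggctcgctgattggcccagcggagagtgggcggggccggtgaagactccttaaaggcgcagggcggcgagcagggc
These stretches differ at 3 positions, counted from 1 at the 5′ end with the base of Hspa1a first: C44T, T47C and T249G. The coding sequences were 99.4% identical. After the stop codon, over 810 and 643 bases, 47.3% of aligned columns were identical. Reads from the 3′ ends can therefore tell the genes apart, whereas reads in the coding sequence may be split or lost, and each count of the pair is uncertain to that extent.

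Of the 10 genes, 8 had promoter windows in the RefSeq table used, from 250 bases before to 50 after a start site, and windows of Hspa8 and Hsp90aa1 were not used here. Inverted pairs of units, GAANNTTC or TTCNNGAA (each reads the same on both strands), were held by windows of 7 of these 8 genes and by those of 17.0% of the 26994 genes in the table. A run of 3 units, TTCNNGAANNTTC on either strand, which contains such a pair, was held by windows of Hsph1, Hspd1 and Hspe1 and by those of 0.663% of the genes. The windows of Dnajb1 held neither. Stretches of 3 other promoters are given to show other arrangements, with capitals for matches to a pair: Dnaja1 (chr4:40722333-40722362, plus strand) with a single match, Hspb1 (chr5:135887801-135887830, plus strand) with 2 separate matches, and Hspe1 (chr1:55088053-55088082, plus strand) with overlapping matches.
Dnaja1: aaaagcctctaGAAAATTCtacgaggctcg
Hspb1: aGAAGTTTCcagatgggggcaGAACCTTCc
Hspe1: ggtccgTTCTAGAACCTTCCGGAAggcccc
The Hspe1 stretch also lies in a window of Hspd1, on the opposite strand. Both genes lie head to head on chromosome 1, Hspd1 from 55077835 to 55088243 on the minus strand and Hspe1 from 55088132 to 55091307 on the plus strand, and encode the mitochondrial chaperonin HSP60 and its cochaperonin HSP10. A match describes these letters and is no measured binding site.

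The libraries held 16115 and 7542 cells with 147214934 and 162522700 UMIs, and the 10 genes gave 0.483% and 0.481% of their UMIs, here and below with Olaparib + LLY-283 first and Combo second. After filtering, 13974 and 5672 cells were kept and sorted by marker UMIs into 9 classes, called tumor-like, cancer-associated fibroblast (CAF)-like and so on. Tumor-like cells carried UMIs of Epcam or keratins and had low marker scores for the other classes, with a wider limit for CAF. In tumor-like cells the CAF markers gave 578 and 610 of 1000000 UMIs, and Epcam and keratins 974 and 895. In CAF-like cells the CAF markers gave 31782 and 28056. Tumor-like cells numbered 9018 and 2666, with a median of 9386.5 and 47503.5 UMIs per cell. Shares of cells with a UMI were therefore compared after each cell was thinned to 1000 UMIs, unless stated otherwise. Macrophage-like cells numbered 689 and 565, neutrophil-like cells 445 and 1172, and the other 6 classes 10 to 210 per library. All 5 tumor markers and at least 7 markers of each other class had UMIs in their class. Levels below are UMIs of a gene per 1000000 UMIs of a class (CPM), with exact Poisson 95% intervals in brackets. There was 1 library per group, so no test was possible: intervals cover counting error only, and treatment, pool of mice, library and depth cannot be told apart. The libraries shared 39 cell barcodes, and cells with at least 20% mitochondrial UMIs, left out of the levels, made up 0.534% and 21.03% of cells.

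Summed over the 10 genes, tumor-like cells had the highest level of the 9 classes in both libraries, 4964 [4950.4 to 4978] and 5067 [5055 to 5079] CPM. Neutrophil-like cells had the lowest, 2490.3 [2320.2 to 2669.6] and 1932 [1877 to 1988] CPM. Macrophage-like cells were also near the low end, with 2625 [2551 to 2701] and 2442 [2406 to 2478] CPM. Against macrophage-like cells of the same library, 8 of the 10 genes were over 1.5-fold higher in tumor-like cells in each library, beside 33.5% of 12156 genes in Olaparib + LLY-283 and 35.3% of 12986 in Combo. Hspa1a was over 1.5-fold lower in both, beside 23.5% and 25.4% of genes, and Hspa8 was within 1.5-fold. Against neutrophil-like cells 8 genes were higher in each library, beside 49.1% and 61.6% of genes, and Hspa1a was lower, beside 18.3% and 18.2%. Against CAF-like cells 7 and 9 genes were higher, beside 24.9% and 24.8%, and Hspa1a was lower, beside 27.5% and 25.9%. The genes are taken below by role.

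**Figure D1:**
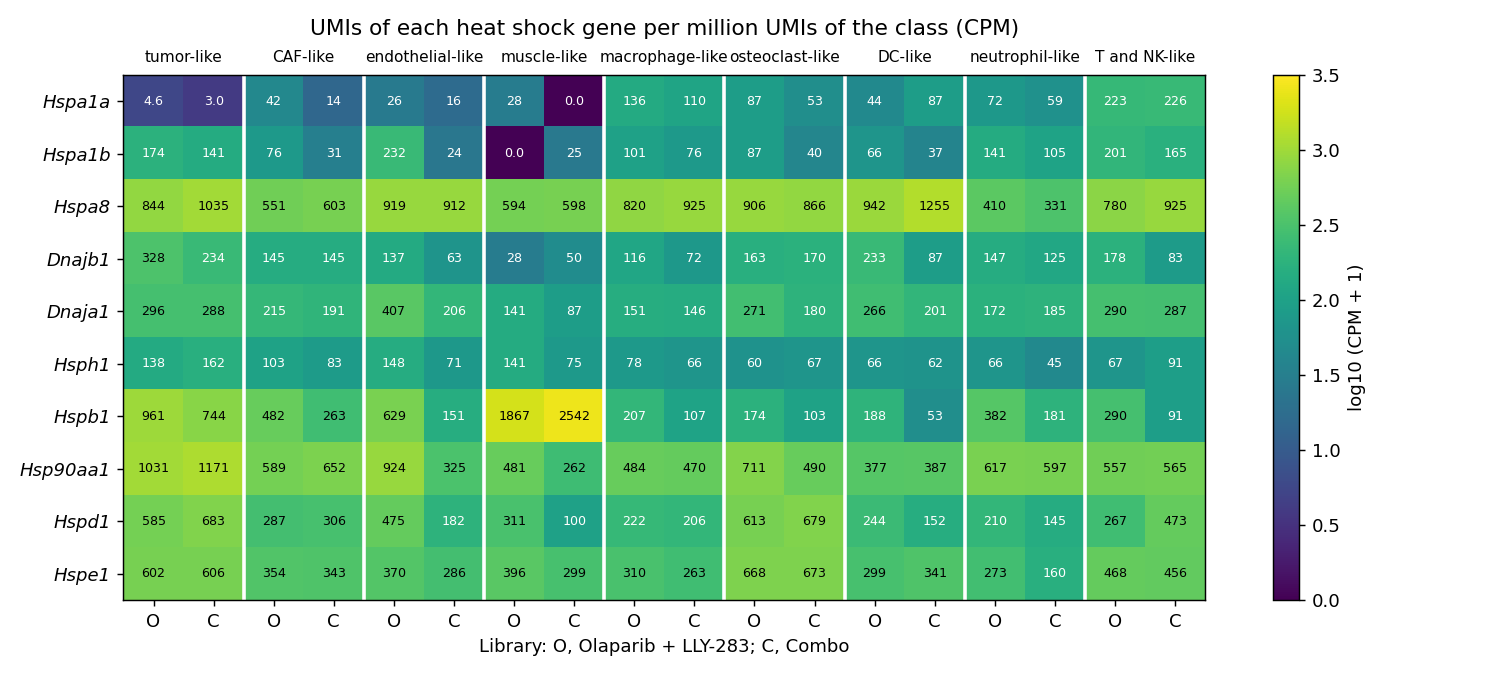
Level of each heat shock gene (rows) in 9 cell classes (columns, with the Olaparib + LLY-283 library as O and the Combo library as C), printed as CPM and colored on a log scale. Hspa1a is at 4.57 and 2.97 CPM in tumor-like cells and at 136 and 110.4 in macrophage-like cells, and Hspb1 is highest in muscle-like cells.

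Hspa1a and Hspa1b, the inducible HSP70 genes, had opposite orders by CPM in tumor-like and macrophage-like cells. Hspa1b was at 174 [171 to 177] and 141 [139 to 143] CPM in tumor-like cells and at 101 [86.9 to 117] and 76.5 [70.2 to 83.2] in macrophage-like cells. Hspa1a was at 4.57 [4.16 to 5.00] and 2.97 [2.68 to 3.28] CPM in tumor-like cells. In macrophage-like cells it was at 136 [119 to 154] and 110.4 [103 to 118] CPM, 29.7 and 37.2 times the tumor-like level. T and NK-like cells had the highest Hspa1a, 223 [107 to 409.7] and 226 [169 to 296] CPM, from 10 and 52 UMIs. In Combo, 98.1% of these UMIs came from the 5% of T and NK-like cells with the most, so this level rests on a few of 42 cells. After thinning, Hspa1a was found in 0.512% [0.375 to 0.682] and 0.381% [0.183 to 0.699] of tumor-like cells and in 7.03% [5.13 to 9.35] and 6.77% [4.84 to 9.18] of macrophage-like cells (Clopper-Pearson intervals). Hspa1b was found in 14.8% [14.1 to 15.6] and 12.9% [11.6 to 14.2] of tumor-like cells and in 6.54% [4.71 to 8.79] and 6.24% [4.38 to 8.57] of macrophage-like cells.

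The share of Hspa1a among the UMIs of the pair does not depend on how libraries are scaled. In tumor-like cells Hspa1a gave 459 of 17943 UMIs in Olaparib + LLY-283, 2.56% [2.33 to 2.80], and 390 of 18910 in Combo, 2.06% [1.86 to 2.28]. In macrophage-like cells it gave 244 of 426 UMIs, 57.3% [52.4 to 62.0], and 784 of 1327, 59.1% [56.4 to 61.7]. By UMIs the pair was thus almost entirely Hspa1b in tumor-like cells and mostly Hspa1a in macrophage-like cells. Before thinning, 61 and 68 macrophage-like cells held only Hspa1a, 57 and 114 only Hspa1b, and 36 and 73 both. The intervals here treat each UMI as independent, though in macrophage-like cells most came from few cells. T and NK-like cells had 52.6% [28.9 to 75.6] and 57.8% [46.9 to 68.1] and osteoclast-like cells 50% [31.9 to 68.1] and 57.1% [37.2 to 75.5]. These intervals overlapped those of macrophage-like cells. The UMIs of the pair came from only 9 and 8 T and NK-like cells and 17 and 9 osteoclast-like cells. CAF-like cells had 35.7% [26.9 to 45.3] and 31.0% [20.5 to 43.1] and neutrophil-like cells 33.8% [22.8 to 46.3] and 35.9% [31.1 to 40.8]. DC-like (dendritic) cells had 40% [12.2 to 73.8] and 70% [53.5 to 83.4], from only 10 and 40 UMIs. Endothelial-like cells had 10.2% [3.40 to 22.2] in Olaparib + LLY-283 and 5 UMIs of the pair in Combo. Muscle-like cells had 1 and 2 UMIs of the pair. Carried-over tumor RNA, almost entirely Hspa1b within the pair, would lower the share in other classes. Epcam and keratins stood at 24.6% and 26.5% of their tumor-like level in CAF-like cells and at 40.2% and 25.01% in neutrophil-like cells. They stood at 21.6% and 11.4% in macrophage-like cells and at 54.2% and 10.6% in endothelial-like cells. The part of carried-over tumor RNA in these shares was not tested.

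**Figure D2:**
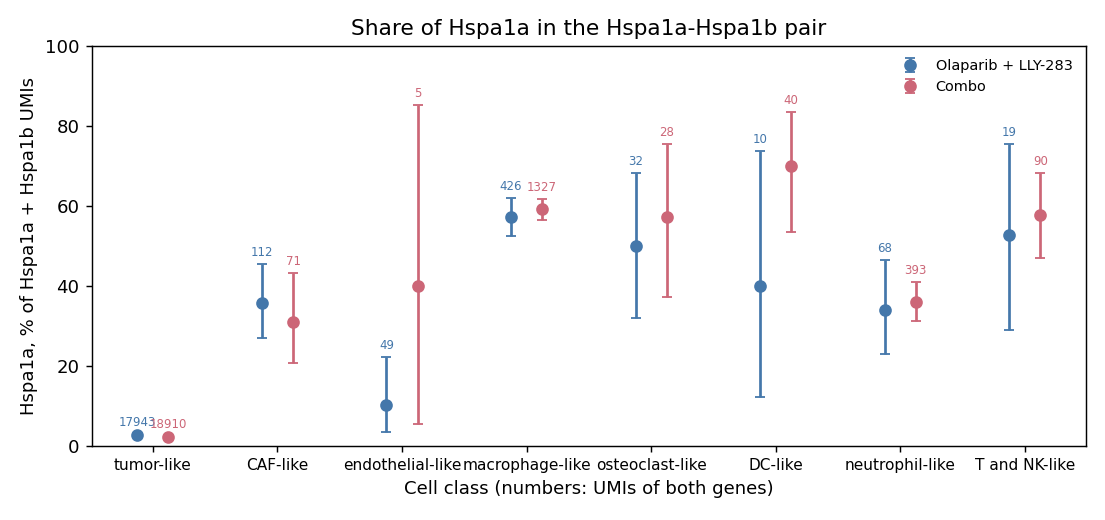
Share of Hspa1a among the UMIs of Hspa1a and Hspa1b (percent) by cell class and library, with exact Clopper-Pearson 95% intervals as bars; the numbers are UMIs of the pair. Tumor-like cells are at 2.56% and 2.06%, macrophage-like cells at 57.3% and 59.1%, and muscle-like cells are not drawn. The part of carried-over tumor RNA in the shares was not tested.

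Summed, the pair differed less between these classes than either gene did, at 178 [176 to 181] and 144 [142 to 146] CPM in tumor-like cells and 237 [215 to 260.2] and 187 [177 to 197] in macrophage-like cells. Free RNA from other cells can add UMIs where a gene is low. In tumor-like cells the macrophage markers stood at 0.465% and 0.647% of their level in macrophage-like cells, and Hspa1a at 3.37% and 2.69%. The rule for tumor-like cells leaves out cells rich in these markers, which partly sets the marker values. Before thinning, Hspa1a was found in 266 and 212 tumor-like cells, of which 79.3% and 87.7% also held Hspa1b, beside 61.8% and 80.5% of all tumor-like cells. These shares depend on the UMIs per cell, so they cannot show whether the genes occur together. The part of free RNA in these UMIs was not tested.

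Hspa8 encodes the constitutive HSP70, HSC70. It differed least between tumor-like and macrophage-like cells, at 844 [839 to 850.1] and 1035 [1030.0 to 1041] CPM in the former and 820.4 [779 to 863] and 925 [903 to 948] in the latter. Neutrophil-like cells had the lowest Hspa8, 410.4 [343 to 487] and 331 [308 to 355] CPM. DC-like cells had the highest, 942 [752 to 1165] and 1255 [1136 to 1383] CPM, and overlapped the next class in Olaparib + LLY-283 and not in Combo. Hsph1, an HSP110 that exchanges the nucleotide of HSP70, was at 138 [135 to 140.0] and 162 [160.3 to 165] CPM in tumor-like cells and at 78.3 [65.9 to 92.4] and 65.9 [60.1 to 72.2] in macrophage-like cells.

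Dnajb1 and Dnaja1 encode HSP40 J proteins, which deliver substrates to HSP70. Dnajb1 was highest in tumor-like cells in both libraries, at 328 [325 to 332] and 234 [231 to 236] CPM, though the next class, DC-like cells, overlapped in Olaparib + LLY-283. In macrophage-like cells Dnajb1 was at 116 [101 to 133] and 72.4 [66.3 to 78.9] CPM. Dnaja1 was at 296 [292 to 299] and 288 [285 to 291] CPM in tumor-like cells and 151 [133 to 169.6] and 146 [137 to 155] in macrophage-like cells. In T and NK-like cells Dnaja1 was at 289.6 [154 to 495] and 287 [222 to 365] CPM, which did not differ from the tumor-like level beyond counting error.

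Hsp90aa1, the inducible cytosolic HSP90, was highest in tumor-like cells in both libraries, at 1031 [1025 to 1038] and 1171 [1165 to 1177] CPM. Macrophage-like cells had 484 [453 to 518] and 470.0 [454 to 486] CPM and neutrophil-like cells 617 [534 to 709.5] and 597 [567 to 629]. Endothelial-like cells, second and overlapping with tumor-like cells in Olaparib + LLY-283, had 924 [792 to 1072] and 325 [233 to 441] CPM, from 35 and 10 cells.

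Hspb1 encodes the small heat shock protein HSP27. Muscle-like cells had the highest level, 1867 [1444 to 2376] and 2542 [2206 to 2916] CPM, followed by tumor-like cells at 961 [955 to 967] and 744 [739 to 749]. Macrophage-like cells were at 207 [187 to 229] and 107 [99.7 to 115] CPM. This low level stood close to that of tumor RNA in the same cells: the Epcam and keratin list in macrophage-like cells was at 21.6% and 11.4% of its tumor-like level, and Hspb1 at 21.6% and 14.4%. In neutrophil-like cells the list was at 40.2% and 25.01% and Hspb1 at 39.8% and 24.3%. Hspb1 was at or under the share of the keratin list in neutrophil-like cells of both libraries, in macrophage-like and osteoclast-like cells of Olaparib + LLY-283, and in DC-like and T and NK-like cells of Combo. The part of carried-over tumor RNA in these levels was not tested. Hspd1 in neutrophil-like cells, at 35.9% and 21.2%, was also under it. In macrophage-like cells the other 9 genes stood at 30.1% or more of the tumor-like level in both libraries, above the share of the keratin list.

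Hspd1 and Hspe1, the mitochondrial chaperonin genes, did not differ between osteoclast-like and tumor-like cells beyond counting error. In osteoclast-like cells, which numbered 38 and 18, Hspd1 was at 613 [505 to 737] and 679 [589 to 779] CPM and Hspe1 at 668 [555 to 797] and 673 [583 to 772]. In tumor-like cells Hspd1 was at 585 [580.5 to 590.0] and 683 [678 to 687] CPM and Hspe1 at 602 [597 to 607] and 606 [602 to 610.0]. The intervals of both genes overlapped between these classes in both libraries. In macrophage-like cells Hspd1 was at 222 [200.4 to 244] and 206 [195 to 217] CPM and Hspe1 at 309.9 [285 to 337] and 263 [250.9 to 275].

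Between the libraries, the summed level in tumor-like cells was nearly equal, with a log2 ratio of CPM, Combo over Olaparib + LLY-283, of 0.03 [0.02 to 0.03] (exact conditional binomial interval). Within this sum the genes went both ways. Lower in Combo were Hspa1a (-0.62 [-0.82 to -0.42]), Dnajb1 (-0.49 [-0.51 to -0.47]), Hspb1 (-0.37 [-0.38 to -0.36]) and Hspa1b (-0.30 [-0.33 to -0.27]). Higher were Hspa8 (0.29 [0.28 to 0.31]), Hsph1 (0.24 [0.21 to 0.27]), Hspd1 (0.22 [0.21 to 0.24]) and Hsp90aa1 (0.18 [0.17 to 0.19]). Dnaja1 (-0.04) and Hspe1 (0.01) were nearly equal. Only Hspa1a, the member with the fewest UMIs in these cells, was over 1.5-fold apart (lower in Combo), beside 2.19% of 13544 genes. With classes from Leiden clusters it was within 1.5-fold (-0.32). None of the 10 was over 1.5-fold higher, beside 4.67% of genes, and the median log2 ratio of all genes was 0.06.

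In macrophage-like cells 2 of the 10 genes were over 1.5-fold lower in Combo, beside 2.99% of 7592 genes, and none was over 1.5-fold higher, beside 4.77%. They were Hspb1, at 207 and 107 CPM (-0.95 [-1.13 to -0.77]), and Dnajb1, at 116 and 72.4 CPM (-0.68 [-0.92 to -0.44]). The keratin list in these cells was at 210.0 and 102 CPM, and its part in these ratios was not tested. As a mean over cells, Dnajb1 was within 1.5-fold (-0.48). Hspa1b (-0.41 [-0.65 to -0.15]), Hspa1a (-0.30 [-0.50 to -0.08]) and Hspe1 (-0.24 [-0.38 to -0.10]) were lower by less, and Hspa8 was higher (0.17 [0.09 to 0.26]). The intervals of Dnaja1, Hsph1, Hsp90aa1 and Hspd1 held 0. The summed level differed by -0.10 [-0.15 to -0.06].

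In CAF-like cells, of 9 genes whose UMIs in both libraries summed to 100 or more, Hspa1b (-1.28 [-1.84 to -0.74]) and Hspb1 (-0.87 [-1.07 to -0.68]) were over 1.5-fold lower in Combo, beside 2.34% of 3841 genes, and none was higher, beside 4.06%. There the keratin list was at 239.9 and 237 CPM. Hspb1 stood at 50.1% and 35.4% of its tumor-like level and Hspa1b at 43.6% and 22.05%, beside 24.6% and 26.5% for the keratin list, so Hspa1b in Combo was under the share of the list, whose part in this ratio was not tested. In neutrophil-like cells Hspb1 (-1.08 [-1.37 to -0.78]) and Hspe1 (-0.78 [-1.11 to -0.42]) were over 1.5-fold lower, beside 13% of 3003 genes, none was higher, beside 21.3%, and the keratin list was at 392 and 224 CPM. Hspb1 had a lower level in Combo in 8 of the 9 classes and a higher one in muscle-like cells (0.44 [0.04 to 0.87]). In DC-like cells it was at 188 and 52.7 CPM, from 17 and 17 UMIs, with the keratin list at 99.7 and 152 CPM. In osteoclast-like cells the keratin list was at 217 and 69.9 CPM, and the interval of Hspb1 held 0 (-0.75 [-1.51 to 0.01]). In T and NK-like cells the list was at 267 and 130 CPM. The part of the list in these ratios was not tested. In endothelial-like cells 4 of 6 genes with enough UMIs were over 1.5-fold lower in Combo, beside 20.4% of genes, none was higher, beside 20.2%, and the keratin list was at 528 and 95.2 CPM. In osteoclast-like cells 1 of 5 genes, Dnaja1, was lower, beside 7.65%, and none higher, beside 6.68%. In T and NK-like cells 1 of 4 genes, Hspd1, was higher, beside 10.7%, and none lower, beside 6.3%. None of 3 genes in DC-like cells passed, beside 9.15% higher and 7.22% lower, nor did the single gene in muscle-like cells, beside 3.61% and 6.63%.

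**Figure D3:**
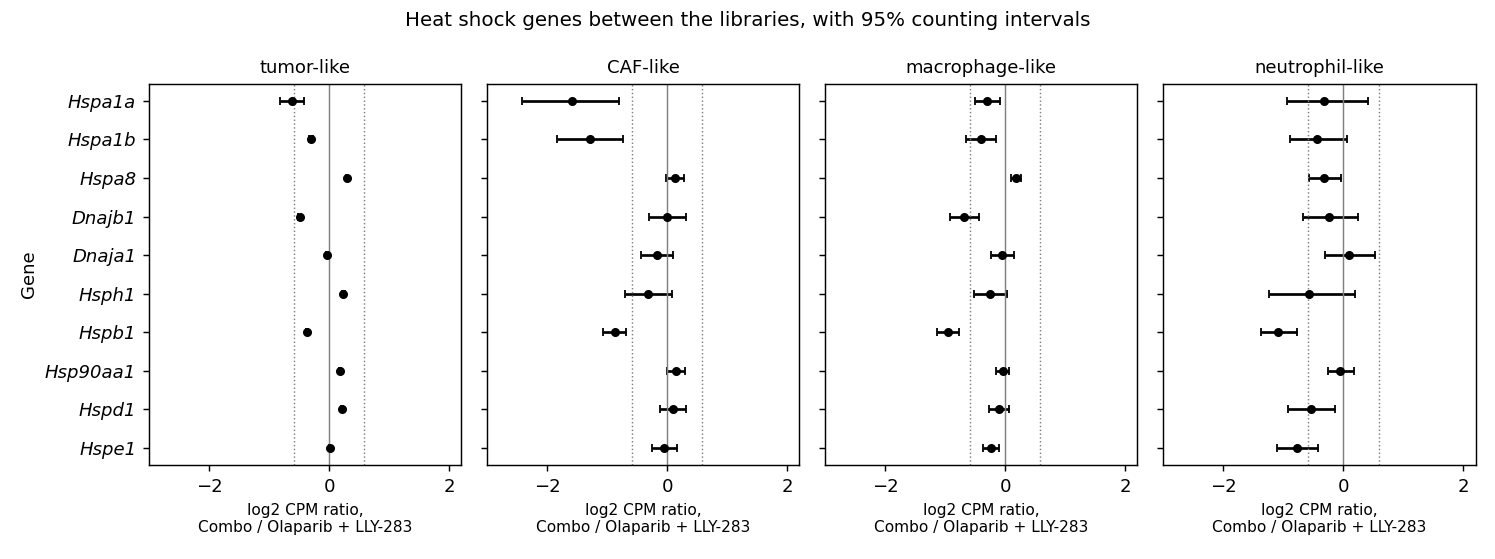
Log2 ratio of CPM, Combo over Olaparib + LLY-283 (x axis), for each heat shock gene (y axis) in 4 cell classes, with 95% counting intervals as bars and dotted lines at 1.5-fold. Hspb1 lies below 0 in all 4 panels. Hspa8 lies above 0 in tumor-like and macrophage-like cells and below 0 in neutrophil-like cells, and its interval in CAF-like cells holds 0.

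Within tumor-like cells, most pairs of the 10 genes were weakly and positively correlated from cell to cell. Over 7729 and 2556 cells thinned to 5000 UMIs, the 45 pairs of genes had a median Pearson r of 0.12 and 0.12, and none was below 0. By Spearman's rho, 0 pairs in Olaparib + LLY-283 and 4 in Combo were below 0, the lowest Dnajb1 with Hspd1 at -0.03. The highest r were among Hspb1, Dnajb1 and Hspa1b: 0.41 and 0.47 for Dnajb1 with Hspb1, 0.37 and 0.50 for Hspa1b with Hspb1, and 0.32 and 0.44 for Hspa1b with Dnajb1. Hspd1 and Hspe1 had r of 0.23 and 0.29 with each other, and Hspd1 had 0.03 and 0.01 with Hspb1 and 0.05 and 0.03 with Hspa1b. Hsp90aa1 was correlated with both groups, at 0.24 and 0.26 with Hspb1 and 0.19 and 0.26 with Hspd1. Hspa1a with Hspa1b had r of 0.16 and 0.11. The r of each gene with the sum of the other 9 lay at or above percentile 97.2 among 5513 and 5614 genes with a mean of at least 0.1 UMIs. Hspa1a, the lowest at 99.4 and 97.2, had means of 0.025 and 0.016 UMIs and was itself below this limit. The genes ranked against were correlated with the sum of all 10, and the percentiles were not adjusted for level. The cells of a library share its preparation and depth profile, so these values are descriptions.

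Hspb1 had the highest ratio of variance to mean of the 10 genes in tumor-like cells. After thinning, its variance was 9.41 and 13.2 times its mean, with a median of 1.05 and 1.07 over all genes. This ratio can rise with the mean, and the genes in that median needed a mean of only 0.1 UMIs. Hsp90aa1, with means of 5.10 and 5.71 UMIs, had ratios of 2.14 and 3.28. The median cell had 3 and 2 UMIs of Hspb1 and the highest had 75 and 104. The 5% of cells with the most held 28.4% and 34.9% of Hspb1 UMIs, 35.2% and 43.9% of Hspa1b UMIs and 12.4% and 12.4% of Hspa8 UMIs. This share was higher for Hspa1b than for Hspb1. It also depends on the mean, 0.916 and 0.797 UMIs for Hspa1b and 4.97 and 4.20 for Hspb1, so it cannot rank their unevenness. Summed over the 10 genes, the median cell had 22 UMIs in both libraries, with a range from the 5th to the 95th percentile of 11 to 49 and 11 to 52.

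In macrophage-like cells, thinned to 2000 UMIs, the median r over pairs was 0.05 and 0.04 in 404 and 545 cells, and 8 and 9 pairs were below 0. The thinning depth differs from that of tumor-like cells, so the sizes are not compared. Hspa1a with Hspa1b had the highest r, 0.41 and 0.57. Hspa1b with Dnaja1 had 0.21 and 0.23, and Hspa1b with Hspb1, among the highest pairs in tumor-like cells, had 0.07 and -0.08. The r of each gene with the sum of the other 9 lay at percentile 82.4 to 99.7 among 2914 genes in Olaparib + LLY-283. In Combo it lay at 64.9 to 99.8 among 3075 genes. The 5% of macrophage-like cells with the most held 68.9% and 80.4% of Hspa1a UMIs and 66.7% and 68.7% of Hspa1b UMIs, so most UMIs of the pair came from few cells.

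**Figure D4:**
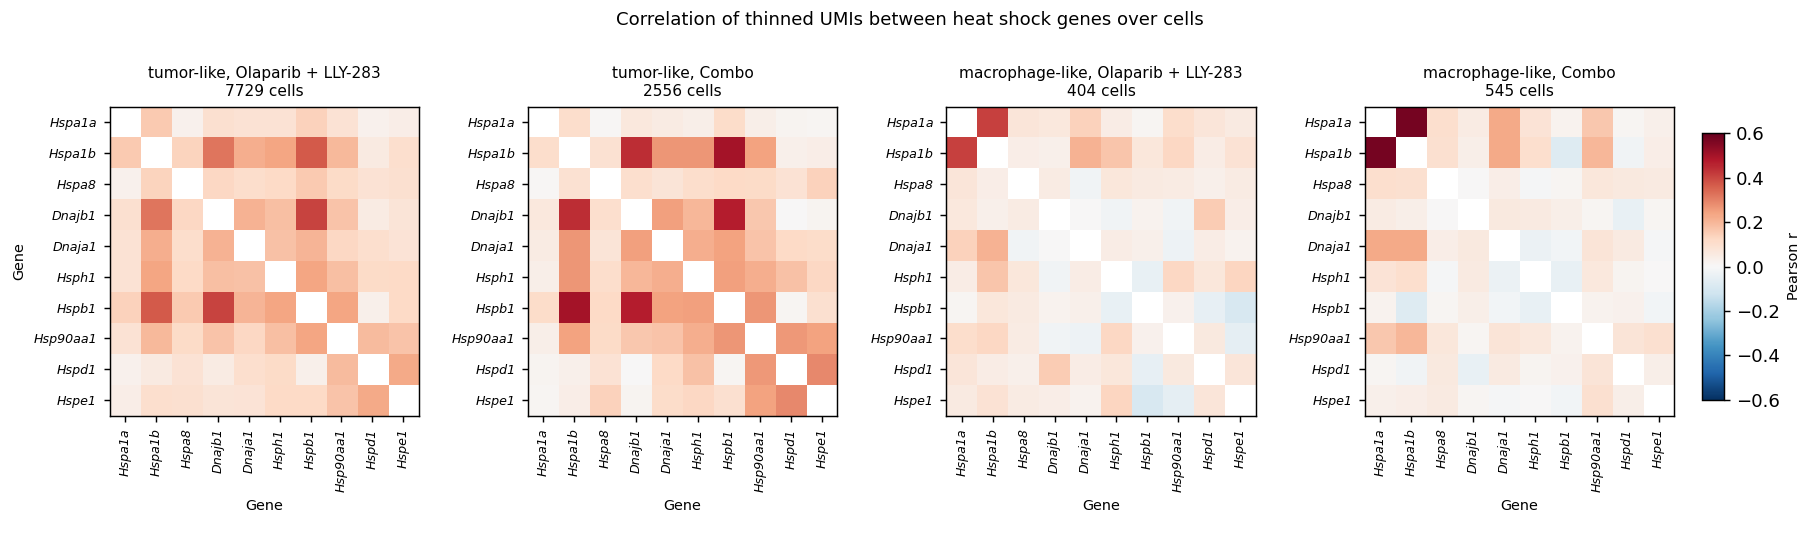
Pearson r over cells (color) for each pair of heat shock genes (both axes) in tumor-like cells thinned to 5000 UMIs and macrophage-like cells thinned to 2000, in both libraries. Hspa1b, Dnajb1 and Hspb1 have the highest r in tumor-like cells of both libraries, and Hspa1a with Hspa1b, at 0.41 and 0.57, in macrophage-like cells.

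Outside the 10, the genes whose UMIs were most like the summed heat shock genes in tumor-like cells, ranked by the lower r of both libraries among 5373 genes, began with Cryab (0.32 and 0.31), a small heat shock protein, Hsp90ab1 (0.28 and 0.30), the constitutive cytosolic HSP90, and Npm1 (0.22 and 0.24), a nucleolar histone chaperone. Next were Adm (0.19 and 0.27), a hypoxia-induced peptide hormone, Eif1 (0.19 and 0.23), an initiation factor of translation, and Atf3 (0.18 and 0.31), a stress-induced transcription factor. Hspa5 (0.24 and 0.18), the HSP70 of the endoplasmic reticulum, Areg (0.18 and 0.21), a ligand of the EGF receptor, Sox9 (0.18 and 0.24) and Krt8 (0.17 and 0.22) completed the first 10. Krt8 is also among the markers whose UMIs, counted before thinning, defined tumor-like cells. The part of this selection in its r and in the library ratios of tumor-like cells was not tested. In macrophage-like cells the first 10 were Snapc5, Rps27l, Rps13, Rpl32, Bhlhe40, Rpsa, Dynll1, Smim11, Atf4 and Npm1, none with r over 0.14 in either library, which is weak.

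Summed UMIs of other lists were set beside Hspa1b in the same tumor-like cells. Immediate early genes, which respond within minutes to signals and to dissociation, had r of 0.18 and 0.26 with Hspa1b, and hypoxia and glycolysis genes 0.09 and 0.24. With the summed heat shock genes these lists had 0.10 and 0.13, and 0.09 and 0.17. The other small heat shock proteins had 0.19 and 0.26 with Hspa1b and 0.28 and 0.26 with the summed genes. Proteasome genes had -0.13 and -0.25 with Hspa1b, but 0.02 and 0.08 with the summed heat shock genes. Subunits of TRiC, the cytosolic chaperonin, had -0.05 and -0.14 with Hspa1b and 0.15 and 0.20 with the summed genes. Cochaperones had 0.01 and -0.09 with Hspa1b and 0.11 and 0.13 with the summed genes. With the summed heat shock genes, the percentage of mitochondrial UMIs had r of -0.14 and -0.12 and the log of the UMIs per cell before thinning 0.03 and 0.06. With Hspa1b, the percentage had -0.07 and 0.06 and the log -0.05 and -0.09. Between the libraries, 3 of 19 immediate early genes were over 1.5-fold lower in tumor-like cells of Combo (Klf2 -0.88, Egr2 -0.83 and Fos -0.59) and none was higher, with a median log2 ratio of -0.37. Their part in the lower Hspa1b, Dnajb1 and Hspb1 was not tested. In the 86 and 1586 cells with at least 20% mitochondrial UMIs, the 10 genes summed to 4265 and 4957 CPM. All kept cells had 4865 and 4872 CPM and tumor-like cells 5018 and 5129. These values are scaled to UMIs outside the mitochondrial genes, and the cells with at least 20% were not split by class.

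Tumor-like cells were further divided by clusters, made with the 10 genes left out and named here by their leading genes. Genes correlated with the 10, such as Cryab and Adm, were not left out. Both were among the 10 leading genes of the cluster led by Adm, Pgf and Dusp4. Its heat shock level may therefore not be independent of the clustering. The cluster led by Adm, Pgf and Dusp4 had the highest Hspa1a, Hspa1b, Dnajb1, Dnaja1, Hsph1 and Hspb1 in both libraries, with Hspa1b at 327 and 475 CPM and Hspb1 at 2019 and 2269. The cluster led by the histone genes Hist1h2ap, Hist1h2ae and Hist1h1b had the lowest Hspa1b, 88.8 and 49.7 CPM, Dnajb1, 135 and 94.0, and Hspb1, 449 and 331. Hspd1 and Hspe1 had another order. Both were lowest in the cluster led by Aspn, Mgp and Omd, with Hspd1 at 361 and 372 CPM, and highest in clusters led by histone or mitotic genes, where Hspd1 reached 683 and 825 CPM and Hspe1 684 and 692. Hspa8 had the narrowest range, 1.26-fold and 1.38-fold from lowest to highest, beside 3.68-fold and 9.56-fold for Hspa1b. Hspa1a was low in each cluster, at 0.689 to 11.52 CPM.

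The cluster led by Adm, Pgf and Dusp4 made up 20.6% of tumor-like cells in Olaparib + LLY-283 and 11.97% in Combo. Within it the order of the libraries was turned: Hspa1b was at 327 and 475 CPM (0.54 [0.49 to 0.59]), Dnajb1 at 571 and 641 (0.17 [0.12 to 0.21]) and Hspb1 at 2019 and 2269 (0.17 [0.15 to 0.19]). The cluster led by Adm, Espn and Vwa1 was the other with more Hspa1b in Combo, at 256 and 296 CPM (0.21 [0.06 to 0.36]), and there Dnajb1 had a ratio of 0.12 [-0.01 to 0.26] and Hspb1 of 0.44 [0.37 to 0.52]. Of 10 clusters with at least 50 tumor-like cells in each library, Hspa1b was lower in Combo in 8, Dnajb1 in 7 and Hspb1 in 7. Hspa1a, over 1.5-fold lower in Combo over all tumor-like cells, was lower in 7 clusters and higher in 3, with a median of -0.21. Its interval lay below 0 in 1 cluster and above 0 in none. In the cluster led by Adm, Pgf and Dusp4 the ratio of Hspa1a was 0.06 [-0.26 to 0.37]. The lowest ratio of Hspa1b was -0.97, in the cluster led by Cdkn3, Cenpa and Fam89a. Hspa8 was higher in Combo in all 10 clusters, by 0.13 to 0.39, and Hsph1, Hsp90aa1 and Hspd1 each in 9. Their intervals lay above 0 in 10, 9, 9 and 7 clusters. The share of all genes higher or lower was not computed within clusters, and over all tumor-like cells the median log2 ratio of all genes was 0.06. The clusters come from the same 2 libraries and are no replicates.

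**Figure D5:**
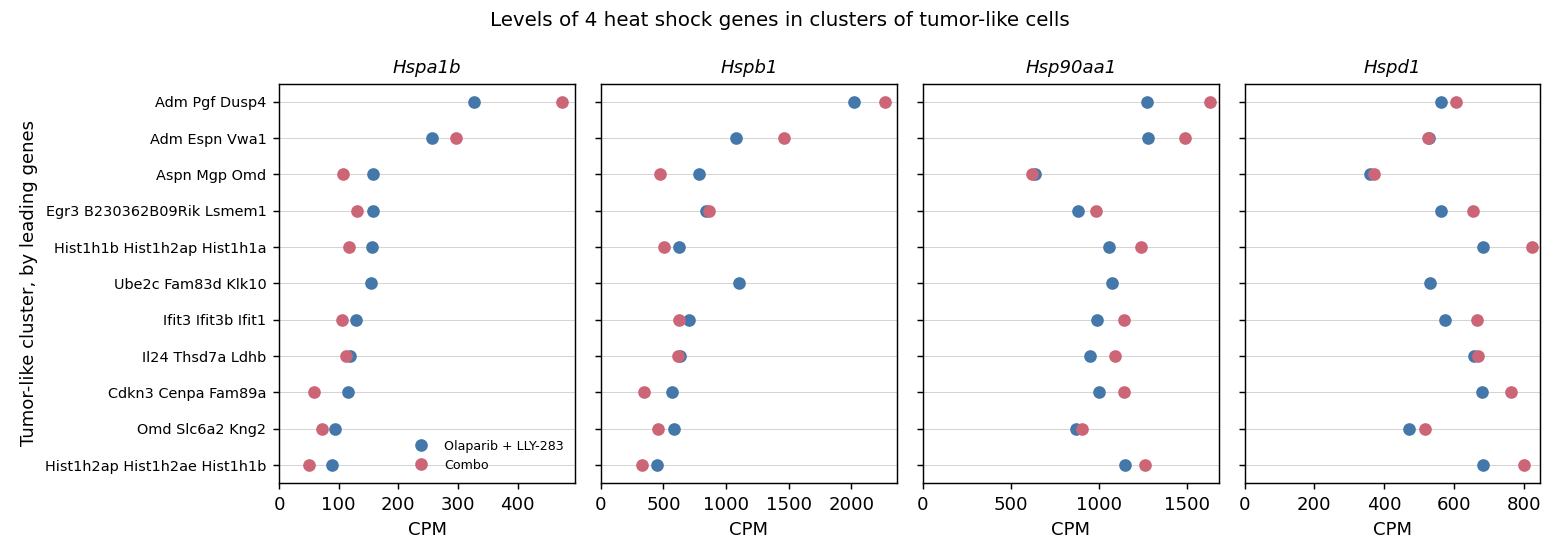
Level (CPM) of Hspa1b, Hspb1, Hsp90aa1 and Hspd1 in clusters of tumor-like cells, named by leading genes, with at least 50 cells in a library; each point is 1 library. Hspa1b and Hspb1 are highest in the cluster led by Adm, Pgf and Dusp4, where the Combo level is the higher of the pair, and Hspd1 is lowest in the cluster led by Aspn, Mgp and Omd.

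Other chaperone lists give the setting of the 10 genes. All 6 genes tested of the other small heat shock proteins were over 1.5-fold higher in tumor-like than in macrophage-like cells in both libraries, with median log2 ratios of 1.81 and 2.66. Of all genes tested, 33.5% and 35.3% were over 1.5-fold higher and 23.5% and 25.4% over 1.5-fold lower, the shares beside which the counts of each list stand. Of the small heat shock proteins, Hspb2 had ratios of 2.15 and 2.91 and Hspb8 2.13 and 2.96. The 8 subunits of TRiC, the cytosolic chaperonin, had medians of 0.89 and 1.00, with 7 higher in each library, and 19 cochaperones had 0.51 and 0.68, with 9 and 10 higher and 0 and 1 lower. The 15 endoplasmic reticulum chaperones had medians of -0.19 and -0.00493, with 1 and 3 higher and 3 and 1 lower. Of 19 immediate early genes, 14 and 15 were lower in tumor-like cells and 1 and 1 higher. The medians of all genes were 0.20 and 0.18. Between the libraries, 4.67% of all genes were over 1.5-fold higher in Combo in tumor-like cells and 2.19% lower. Of the 6 other small heat shock proteins, 1 was higher, Cryaa at 0.65, which encodes an alpha-crystallin and is named after its values were seen, and of the 19 immediate early genes 3 were lower. None of the TRiC subunits, cochaperones, other J proteins, endoplasmic reticulum chaperones or proteasome genes was over 1.5-fold apart in tumor-like cells, with list medians from -0.01 to 0.08.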

How the data were processed

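For each library the authors deposited raw UMI counts by gene and cell barcode, not normalized. Processing by the authors ran through Cell Ranger on mm10; the matrix header names version 6.1.2 and the paper's methods a later one. The members and gene lists were chosen with earlier results of these data known.

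Barcodes with fewer than 200 genes or with mitochondrial UMIs at 20% or more were dropped. Scrublet (scanpy 1.11.5) called 0 doublets by its own threshold in either library, so the cells with the highest scores were left out up to the expected rate of 0.8% per 1000 cells: 2055 and 284 cells. A class needed a marker score of at least 20% (CAF 30%) and 3 UMIs from 2 markers. The marker CPM over all kept cells was subtracted first and the 50 cells with the most markers set the scale. Cells whose second score was over 50% of the first were called mixed. Tumor-like cells had at least 2 UMIs of Epcam, Krt7, Krt8, Krt18 and Krt19, scores under 5% for other classes, and a CAF score under 20%. The scoring rule was chosen on these data, and 3327 and 971 cells stayed unassigned, as did 98 and 83 mixed cells. Clusters came from the Leiden method (leidenalg 0.10.2, resolution 1.3, 2000 variable genes, 30 components, 20 neighbors). CPM, thinned shares, ratios (0.5 UMIs added, genes with at least 100 UMIs, call at 1.5-fold) and correlations of log UMIs at 5000 or 2000 UMIs per cell were computed in Python 3.11.15 with numpy 2.4.6 and scipy 1.17.1, and tested on simulated data. Values are in the order Olaparib + LLY-283, Combo unless stated. Intervals do not cover differences between mice.

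The named genes are all 10 members, up to 3 genes per other list past 1.5-fold, and the 10 closest genes by correlation. All 55450 identifiers matched GENCODE M21, and promoter windows and start sites are from RefSeq. Alternatives changed the mitochondrial limit, doublets, class rule, scaling, cell weighting, thinning, depth, UMI minimum, fold and type of correlation.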

Additional observations from a re-analysis of the deposited data

Results flagged for a closer look

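Hspd1, the HSP60 gene, was over 1.5-fold apart between the libraries in opposite directions in different classes. Its log2 ratio, Combo over Olaparib + LLY-283, was 0.77 [-0.04 to 1.82] in T and NK-like cells, at 267 and 473 CPM, and -1.36 [-2.11 to -0.71] in endothelial-like cells, at 475 and 182 CPM. Of all genes tested, 10.7% were over 1.5-fold higher in T and NK-like cells and 20.4% over 1.5-fold lower in endothelial-like cells. The keratin list was at 267 and 130 CPM in T and NK-like cells and at 528 and 95.2 CPM in endothelial-like cells. Its part in these ratios and the difference between these classes were not tested. They held 39 and 42, and 35 and 10 cells, and the interval in T and NK-like cells held 0.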

How the results depend on the processing

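Under the alternatives run, none of the ratios and median correlations recomputed took the opposite sign, and 3 counts fell to 0. Shares in percent cannot change sign. The only single pairs recomputed were Hspa1b with Hspb1 in tumor-like cells and Hspa1a with Hspa1b in tumor-like and macrophage-like cells. Neither pair changed sign. Of 76 alternative values of 12 summaries, 16 moved by more than the counting interval of the main value or by over 1.5 times for a count. Of 156 alternative values of 30 results on single genes or pairs, 41 lay outside the interval of the main value. The log2 ratio of the summed genes, tumor-like over macrophage-like, was 0.92 in Olaparib + LLY-283 and 1.05 in Combo, and became 0.83 and 1.02 with doublets kept, 0.85 and 1.00 with classes from Leiden clusters, and 0.86 and 1.03 as a mean over cells. The share of Hspa1a in the pair in tumor-like cells became 2.92% in Olaparib + LLY-283 with doublets kept and 2.28% in Combo with Leiden classes. Between the libraries, the summed genes in tumor-like cells went from 0.03 to 0.0445 with Leiden classes and 0.0439 as a mean over cells, and in macrophage-like cells from -0.10 to -0.16 with doublets kept. The count over 1.5-fold apart in tumor-like cells fell to 0 with a call at 2-fold or Leiden classes. In macrophage-like cells it fell from 2 to 0 at 2-fold and to 1 as a mean over cells. The median r in tumor-like cells of Olaparib + LLY-283 went from 0.12 to 0.0901 at a smaller thinning depth. As a mean over cells, the lower level in tumor-like cells of Combo was smaller for Hspb1 (-0.27) and Hspa1b (-0.18). The causes were not tested. Leiden clusters gave tumor-like, macrophage-like, CAF-like and muscle-like classes, and no value for the others. No paired analysis was possible because each group is 1 library, and no replicate could be left out. Few UMIs of Hspa1a, and 10 to 46 cells in several classes, limit the precision.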
